A study of Mus musculus with 12 samples.

Results

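Interferon-stimulated genes are the transcripts that vertebrate cells raise when interferon binds its receptors, and they were examined here in whole mouse kidney with and without A1cf. The protein made from A1cf binds RNA and is best known for helping APOBEC1 edit the transcript of apolipoprotein B. The set holds 36 genes of the 46882 gene names in the deposited count table, taken by gene symbol from a list of sensors, transcription factors, antiviral effectors and interferon-inducible GTPases. All 36 had enough reads to be tested, among 16910 genes tested.

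Kidneys came from C57BL/6 mice aged 6 to 8 weeks, either wild-type (WT, n = 6) or A1cf -/- (called KO here, n = 6), with no treatment given in the labels. Libraries carry animal numbers: 573, 590, 601, 776, 777 and 778 for WT, and 574, 584, 588, 591, 602 and 780 for KO. The labels do not say how the allele was made, whether the WT animals were littermates, or which sex the animals had. The series describes the samples as biological replicates, 1 library per animal.

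Interferons of type I and type III signal through receptors to a complex that includes STAT2 and IRF9 and binds the interferon-stimulated response element. Interferon-gamma acts through another element, the gamma-activated site, and induces IRF1. The guanylate-binding proteins (GBPs) and the immunity-related GTPases (IRGs) are large families that act on vacuoles holding intracellular pathogens, and interferon-gamma is their best known inducer. The 4 GBP and 4 IRG genes of the set are called the GTPase genes here, and Mx1 and Mx2, whose products are dynamin-like GTPases, are counted with the antiviral effectors. In kidney these genes are studied in tubular cells, endothelium and resident macrophages during infection, injury and lupus nephritis.

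The promoters of the set are shown first because they carry these elements. RefSeq promoter windows on the GRCm38.p6 build, from 250 bases before to 50 bases after the start of a gene, were matched by symbol to 25 of the 36 genes. The 11 genes without a window were Dhx58, Zbp1, Usp18, Parp9, Parp14, Oas2, Mx1, Mx2, Rtp4, Gbp6 and Iigp1. Each stretch below reads 5′ to 3′ on the strand of its gene, and capitals mark matches to the core of the response element (GAAA, then NN for any bases, then GAAA), on either strand, or to the gamma-activated site TTCNNNGAA, which is its own reverse complement. The first 6 are the GTPase genes, and the last 4 are Irf1 and 3 genes of the ISG15 and IFIT families for comparison.
Gbp2: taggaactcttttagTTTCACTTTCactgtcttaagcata
Gbp3: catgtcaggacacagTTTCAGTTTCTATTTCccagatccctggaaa
Gbp7: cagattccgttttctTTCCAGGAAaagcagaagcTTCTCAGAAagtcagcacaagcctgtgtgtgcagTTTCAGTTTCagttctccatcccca
Igtp: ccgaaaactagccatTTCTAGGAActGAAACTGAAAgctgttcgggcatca
Irgm2: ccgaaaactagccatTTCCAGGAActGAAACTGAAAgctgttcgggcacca
Irgm1: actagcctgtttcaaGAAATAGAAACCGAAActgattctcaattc
Irf1: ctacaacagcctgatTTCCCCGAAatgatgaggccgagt
Isg15: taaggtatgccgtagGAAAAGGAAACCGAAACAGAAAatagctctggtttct
Ifit1: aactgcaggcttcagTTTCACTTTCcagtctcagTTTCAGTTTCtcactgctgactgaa
Ifit3: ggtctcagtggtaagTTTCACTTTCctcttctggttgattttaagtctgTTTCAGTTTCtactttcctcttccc

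The Gbp2, Gbp3 and Gbp7 stretches lie at chr3:142620589-142620628, chr3:142559984-142560029 and chr3:142530215-142530307 on the plus strand. The Igtp, Irgm2 and Irgm1 stretches lie at chr11:58199496-58199546 (plus), chr11:58214887-58214937 (plus) and chr11:48871421-48871465 (minus). Those of Irf1 and Isg15 lie at chr11:53769909-53769947 (plus) and chr4:156200860-156200911 (minus). Those of Ifit1 and Ifit3 lie at chr19:34640770-34640828 and chr19:34583358-34583431, both plus. All 10 stretches end before the RefSeq start of their gene.

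The response element core occurred in the window of 15 of the 25 genes (60.0%), against 3.99% of the 27025 genes with a window. All 6 GTPase genes with a window held it, as did 9 of the 19 others (47.4%). The longer form, in which a C follows the core and which is thus contained in the core matches, occurred in 12 of the 25 (48.0%), against 0.944% of all genes. The gamma-activated site occurred in 7 of the 25 (28%), against 9.55% of all genes, namely in Irf1, Ifit2, Oas1a, Bst2, Gbp7, Igtp and Irgm2. In Bst2 it overlapped a response element. The 51-base stretches of Igtp and Irgm2 were identical at 49 positions, and in both the first base of the response element lay 11 bases after the first base of the gamma-activated site. These matches describe letters in a window and are not evidence of binding.

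Few facts of the libraries bear on what follows. Total counts ran from 26671705 to 52899139 per library and gave an exact two-sided permutation p of 0.75 between genotypes (n = 6 each). A1cf, on chromosome 19 from 31868761 to 31949406 in mm10, had a mean of 54.5 ± 7.39 CPM in WT against 4.11 ± 1.07 CPM in KO (SD, n = 6 each), or 7.54% of WT. CPM is a count scaled to a common library total, with a TMM factor per library. Every library matched its label by this gene. The tissue markers of kidney epithelium, from Umod to Aqp2, summed to between 36054 and 51558 CPM in the 12 libraries. Kap alone gave between 25471 and 41087 CPM of that sum. Of these 10 markers, Umod, Slc12a1, Slc12a3 and Atp6v1b1 were lower in KO at an unadjusted p under 0.05, and Umod was called lower by DESeq2 (adjusted p = 5.6e-05). In whole tissue, fewer cells of a type and less RNA per cell cannot be told apart.

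Most genes of the set had slightly higher mean levels in KO than in WT, and none passed the edgeR test. Fold changes are KO relative to WT, on a log2 scale, and a call means an adjusted p under 0.05 after Benjamini-Hochberg adjustment over all genes tested. The edgeR quasi-likelihood test called 0 of the 36 genes, and it called 8 of all 16910 genes (0.0473%). At an unadjusted p under 0.05, 6 of the 36 were higher in KO (Gbp6, Iigp1, Gbp3, Oas2, Gbp2 and Oasl2), against 5.07% of all genes, and 0 were lower, against 5.28%. A positive fold change was seen for 34 of the 36, against 49.2% of all genes. The median log2 fold change of the 36 was 0.18, against -0.003 for all genes tested. All 6 KO libraries lay above all 6 WT libraries for 3 of the 36 (Gbp6, Gbp3 and Iigp1), against 0.319% of all genes.

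The DESeq2 Wald test, run as an alternative, called those same 3 genes higher in KO (adjusted p = 0.00043 for Gbp6, 0.0069 for Iigp1 and 0.029 for Gbp3). It called 1.11% of all genes. Without KO 602, the number of genes higher at an unadjusted p under 0.05 went from 6 to 19 in edgeR, against 5.80% of all genes, and the median log2 fold change was 0.28. Leaving out any other single library gave between 5 and 7 such genes, and the shares of all genes in those fits were not counted. Each of the 12 settings with 1 library left out gave 0 adjusted calls in edgeR.

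**Figure D1:**
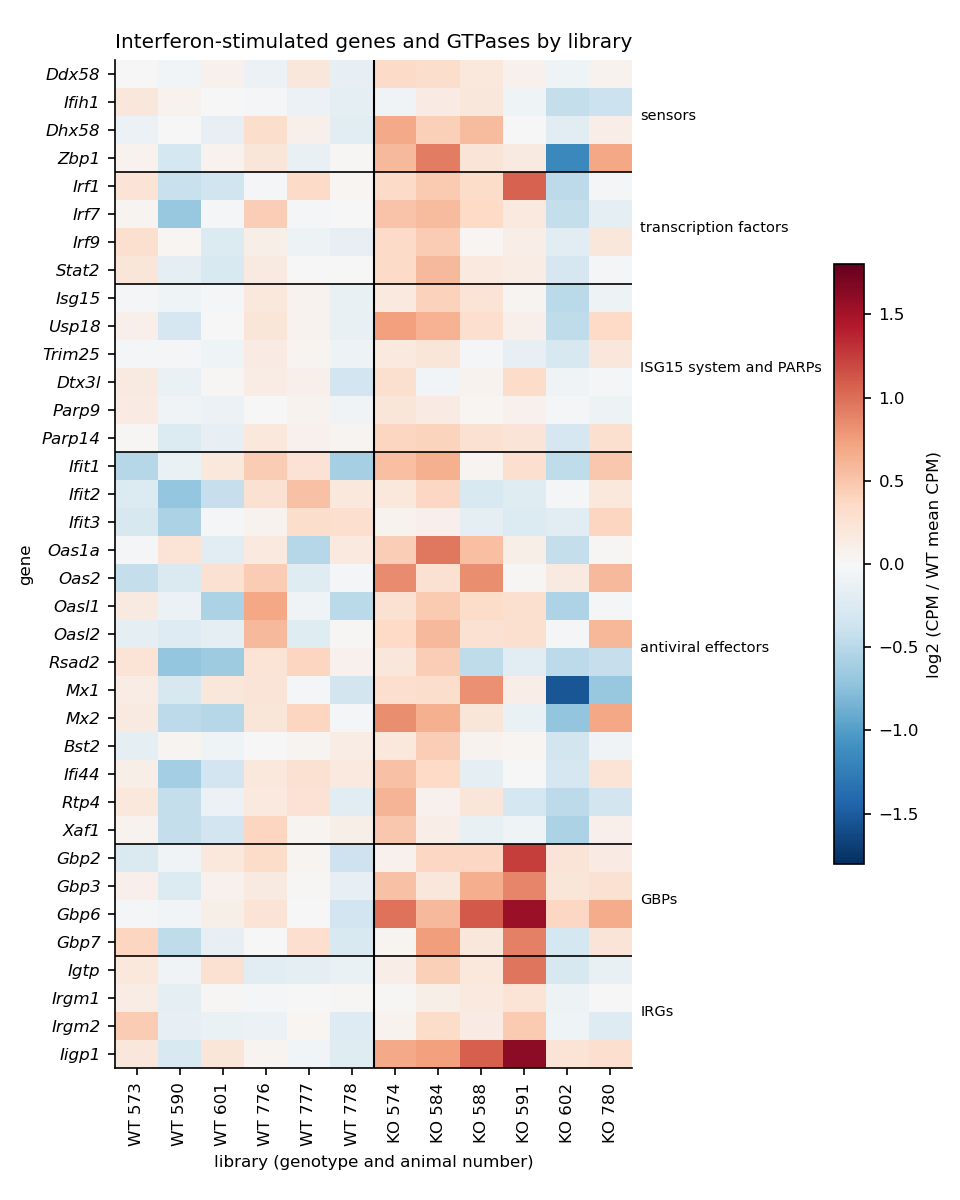
Level of each of the 36 genes (rows, grouped by role) in each library (columns) as log2 of CPM over the WT mean CPM, from blue (lower) to red (higher). The deepest red lies in the GBP and IRG rows of KO 591, while KO 602 is pale or blue for most genes outside them.

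**Figure D2:**
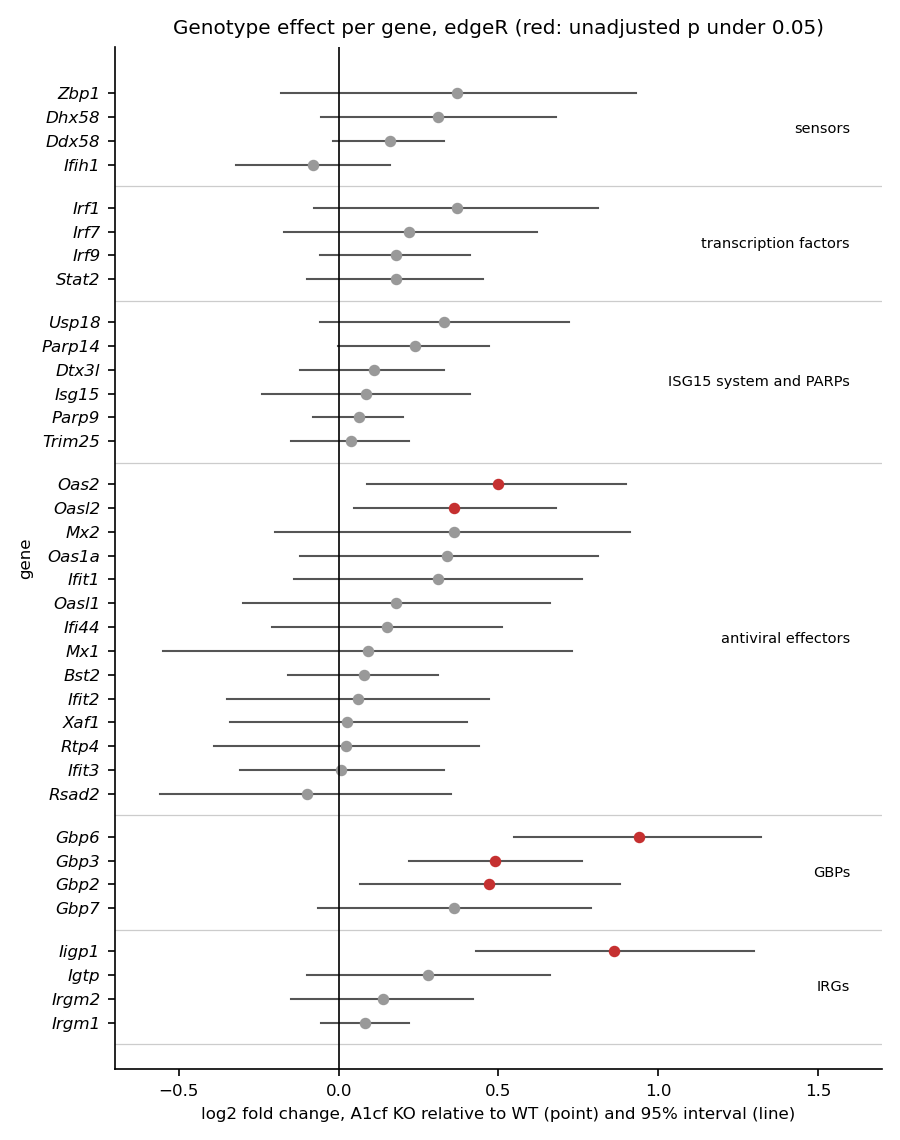
Log2 fold change of each gene, KO relative to WT (x axis, point), with its 95% interval (line), grouped by role. The 6 red points have an unadjusted p under 0.05, and 34 of the 36 points lie to the right of 0.

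The guanylate-binding protein genes had the largest median difference of the 6 role groups. All 4 were higher in KO in mean level, their median log2 fold change was 0.48, and 3 of the 4 were higher at an unadjusted p under 0.05, against 5.07% of all genes. Gbp6, on chromosome 5 from 105214907 to 105293698, ran from 3.11 to 4.71 CPM in WT (median 3.92) and from 5.12 to 11.6 CPM in KO (median 7.02). The 2 groups did not overlap, and the lowest KO library was 602. The mean went from 3.95 ± 0.527 to 7.53 ± 2.35 CPM (SD, n = 6 each), a log2 fold change of 0.94 (SE 0.18, 95% interval 0.55 to 1.32, edgeR adjusted p = 0.11). This was the smallest adjusted p of the set. With 1 library left out it ran from 0.053 to 0.25. Without KO 591 the log2 fold change was 0.77.

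The Gbp6 value carries a counting limit. Gbp6 shares 1792 of its 8538 counted exon bases (21.0%) with Gbp10 on the same strand, and how reads in shared sequence were divided cannot be seen from counts per gene. Gbp10 itself was low, at 0.430 ± 0.260 CPM in WT and 1.35 ± 0.736 CPM in KO.

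Gbp3, on chromosome 3 from 142560026 to 142573209, ran from 5.20 to 6.89 CPM in WT (median 6.42) and from 7.10 to 11.4 CPM in KO (median 8.22). Here too the groups did not overlap, though the lowest KO library lay just above the highest WT library. The mean went from 6.19 ± 0.658 to 8.66 ± 1.72 CPM (SD, n = 6 each), a log2 fold change of 0.49 (SE 0.13, 95% interval 0.22 to 0.76, edgeR adjusted p = 0.22), and it was 0.39 without KO 591.

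Gbp2 lies near Gbp3 on chromosome 3, from 142620602 to 142638008. It ran from 6.05 to 9.94 CPM in WT (median 7.84) and from 8.32 to 18.7 CPM in KO (median 9.68). The groups overlapped, and KO 591 stood far above the other KO libraries, of which the next reached 10.2 CPM. The mean went from 7.87 ± 1.47 to 10.9 ± 3.90 CPM (SD, n = 6 each). The log2 fold change of 0.47 (SE 0.19, edgeR adjusted p = 0.41) was 0.25 without KO 591. Gbp7, in the same cluster of GBP genes (142530342 to 142550149), ran from 4.89 to 8.73 CPM in WT and from 5.37 to 12.5 CPM in KO. Its groups overlapped widely, with means of 6.69 ± 1.52 and 8.61 ± 2.72 CPM. The log2 fold change of Gbp7 was 0.36 (SE 0.20, edgeR adjusted p = 0.54), and 0.22 without KO 591. Gbp7 shares 637 of its 5614 counted exon bases (11.3%) with Gm43802 on the same strand, so its value carries a counting limit as well. Gm43802 had a mean of 0 CPM.

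Among the immunity-related GTPases 1 gene stood apart and 3 differed little. Iigp1, which encodes an effector that coats vacuoles of intracellular parasites, lies on chromosome 18 from 60376029 to 60392627. It ran from 4.79 to 6.75 CPM in WT (median 5.79) and from 6.89 to 17.7 CPM in KO (median 9.47). The groups did not overlap, with KO 602 and 780 (7.11 CPM) closest to WT. The mean went from 5.79 ± 0.820 to 10.5 ± 4.04 CPM (SD, n = 6 each), a log2 fold change of 0.86 (SE 0.20, 95% interval 0.43 to 1.30, edgeR adjusted p = 0.17). Without KO 591 it was 0.64.

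The other 3, Igtp, Irgm1 and Irgm2, encode regulators that keep the effectors inactive on the membranes of the cell. Igtp, on chromosome 11 from 58199556 to 58207591, ran from 10.8 to 14.9 CPM in WT (median 11.5) and from 10.1 to 23.9 CPM in KO (median 13.7). Its mean was 12.3 ± 1.74 in WT and 14.9 ± 4.97 CPM in KO (log2 fold change 0.28, edgeR adjusted p = 0.61), and without KO 591 the log2 fold change was 0.09. Irgm1 and Irgm2 had log2 fold changes of 0.083 and 0.14. Irgm1 was the most abundant GTPase gene of the set, at 36.8 ± 2.37 CPM in WT and 38.9 ± 3.28 CPM in KO. Igtp and Irgm2 share 162 exon bases on the same strand (8.01% of Igtp and 4.47% of Irgm2), so their values are not fully separate. The median of the 4 IRG genes was 0.21, with 1 of the 4 higher at an unadjusted p under 0.05 (5.07% of all genes). It was 0.12 with the run of animal numbers (573 to 602 against 776 to 780) as a covariate, and 0.075 without KO 591.

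**Figure D3:**
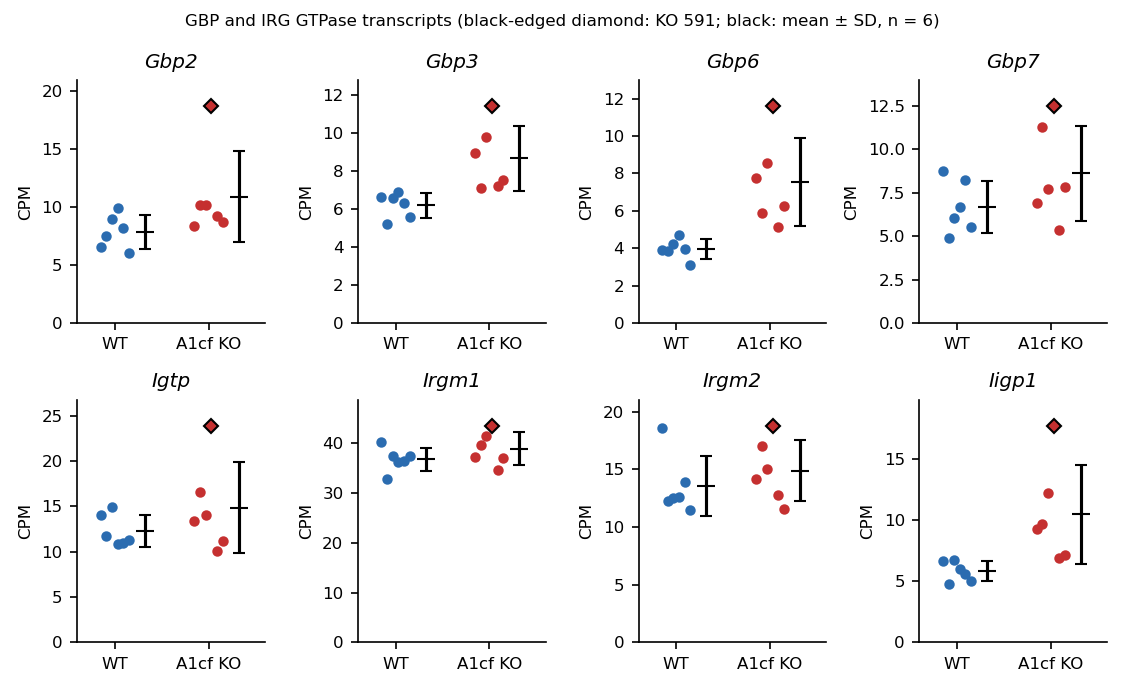
CPM (y axis, starting at 0) of the 8 GTPase genes in each WT (blue) and KO (red) library, with the mean and SD in black (n = 6 each). KO 591, the black-edged diamond, is the highest of the 12 libraries in all 8 panels, and only Gbp3, Gbp6 and Iigp1 have genotypes that do not overlap.

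The 14 antiviral effectors had a median log2 fold change of 0.12, which moved with the libraries used. Of these genes, 13 had a positive fold change and 2 were higher at an unadjusted p under 0.05, against 5.07% of all genes. The median was 0.24 without KO 602 (5 such genes, against 5.80% of all genes) and 0.19 without WT 777. It was 0.053, 0.070 and 0.074 without KO 574, WT 590 and KO 584. With the run of animal numbers as a covariate it was 0.25, and within animals 573 to 602 it was 0.36 with all 14 positive. Oas2, one of the oligoadenylate synthetases that activate RNase L on double-stranded RNA, lies on chromosome 5 from 120730333 to 120749853. It ran from 2.0 to 3.68 CPM in WT (median 2.47) and from 2.72 to 4.84 CPM in KO (median 3.63). The groups overlapped, with KO 574, 588 and 780 above every WT library. The means were 2.69 ± 0.653 and 3.77 ± 0.916 CPM (SD, n = 6 each), a log2 fold change of 0.50 (SE 0.19, edgeR adjusted p = 0.39).

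Oasl2, an oligoadenylate synthetase-like gene on chromosome 5 from 114896936 to 114912234, ran from 7.10 to 12.5 CPM in WT (median 7.43) and from 8.13 to 12.7 CPM in KO (median 10.4). The WT maximum was in WT 776, and the other 5 WT libraries lay at or below 8.52 CPM. The means were 8.36 ± 2.09 and 10.7 ± 1.69 CPM, a log2 fold change of 0.36 (SE 0.15, edgeR adjusted p = 0.41).

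The other 12 effectors had log2 fold changes from -0.10 to 0.36, and edgeR adjusted p from 0.61 to 0.99. Among those above 0.3 were Mx2 (0.36), a dynamin-like antiviral GTPase gene, Oas1a (0.34) and Ifit1 (0.31), which encodes a protein that binds viral RNA caps. Rsad2, the gene of the antiviral enzyme viperin, was the lowest, with means of 18.2 in WT and 17 CPM in KO and a log2 fold change of -0.10. Ifit3 (0.0075), Rtp4 (0.024), Xaf1 (0.026), Ifit2 (0.061), Bst2 (0.078), Mx1 (0.092), Ifi44 (0.15) and Oasl1 (0.18) lay between. Mx1 was the least abundant gene of the set, at 0.975 CPM in WT, so its value rests on few reads.

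Of the 4 transcription factors, all had positive fold changes (median 0.20) and 0 were higher at an unadjusted p under 0.05, against 5.07% of all genes. The median was 0.13 without KO 584 and 0.36 within animals 573 to 602. Without KO 602, 3 of the 4 were higher at an unadjusted p under 0.05, against 5.80% of all genes. Irf1, a factor induced by interferon-gamma, lies on chromosome 11 from 53770014 to 53778374. It ran from 9.19 to 15.5 CPM in WT (median 12.2) and from 8.80 to 25.4 CPM in KO (median 15.4). The highest of all 12 libraries was again KO 591 and the lowest KO 602. Its log2 fold change was 0.37 (SE 0.21, edgeR adjusted p = 0.56), and 0.17 without KO 591. Irf9, which encodes a DNA-binding subunit of the complex that includes STAT2, ran from 14.9 to 21.5 CPM in WT (median 17.3) and from 15.5 to 24.1 CPM in KO (median 19.7). The groups overlapped (log2 fold change 0.18, edgeR adjusted p = 0.60). Stat2 and Irf7, the factor that amplifies type I interferon production, had log2 fold changes of 0.18 and 0.22.

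The 4 sensors of foreign nucleic acid gave a median log2 fold change of 0.24. At an unadjusted p under 0.05, 0 were higher or lower, against 5.07% and 5.28% of all genes. Without KO 602, 3 were higher, against 5.80%. Ddx58, which encodes the RNA helicase RIG-I, ran from 23.9 to 30.7 CPM in WT (median 26.0) and from 25.2 to 33.7 CPM in KO (median 29.1). Its groups overlapped, with a log2 fold change of 0.16 (SE 0.082, edgeR adjusted p = 0.52). Dhx58, which encodes the related regulator LGP2, ran from 1.41 to 2.03 CPM in WT (median 1.56) and from 1.43 to 2.60 CPM in KO (median 1.98). KO 574, 584 and 588 were above every WT library, and the other 3 were not (log2 fold change 0.31, edgeR adjusted p = 0.54). Zbp1, a sensor of left-handed nucleic acid, had a log2 fold change of 0.37, and Ifih1, the gene of the sensor MDA5, one of -0.079.

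Isg15, a ubiquitin-like protein gene, and the genes that act with it or restrain the response had a median log2 fold change of 0.095. All 6 genes were positive and 0 were higher at an unadjusted p under 0.05, against 5.07% of all genes. Without WT 778 the median was 0.054, and without KO 602 it was 0.15. Parp14, an ADP-ribosyltransferase gene, ran from 12.6 to 17.1 CPM in WT (median 15.3) and from 12.1 to 19.7 CPM in KO (median 18.1). In 5 of the 6 KO libraries it was above every WT library, and KO 602 was below every WT library. The log2 fold change was 0.24 (SE 0.11, edgeR adjusted p = 0.48). Usp18, the protease that removes ISG15 and limits receptor signalling, ran from 1.88 to 2.69 CPM in WT (median 2.37) and from 1.69 to 3.87 CPM in KO (median 2.92). Its log2 fold change was 0.33 (edgeR adjusted p = 0.54). Isg15 (0.084), Trim25 (0.037), Dtx3l (0.11) and Parp9 (0.062) differed less. Dtx3l and Parp9 overlap by 458 exon bases on opposite strands (8.00% and 9.40% of their lengths), and the counting command in the file header sets no strand option, so reads there cannot be told apart.

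Levels within the set spanned a wide range. Per kilobase of counted exon, the WT means were highest for Trim25 (18.5 CPM per kilobase), which encodes a ubiquitin ligase of the RIG-I pathway, Bst2 (12.7), the gene of the membrane tether of budding virions, and Ifit3 (11.5). They were lowest for Mx1 (0.267) and Mx2 (0.306). Counts per gene and library ran from 12 to 6414, so the low genes have a larger counting error.

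The KO libraries were not alike, and different animals held the highest values of different genes. KO 591 was the highest of the 12 libraries for all 8 GTPase genes and for Irf1 and Dtx3l, 10 of the 36, against 5.12% of all genes. The other highest values fell mostly to KO 584 (11 genes, against 11% of all genes) and KO 574 (9 genes, against 6.00%). KO 591 held the highest value of all 8 GTPase genes, so neither KO 584 nor KO 574 could be highest for one of them. Isg15, Ifit1, Stat2, Irf7 and Zbp1 are among the 11 of KO 584, and Usp18, Oas2, Ddx58 and Mx2 are among the 9 of KO 574.

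Averaged over genes as log2 deviation from the WT mean, KO 591 stood at 0.99 for the 8 GTPase genes and 0.10 for the 28 others. In KO 584 the 2 means were nearly equal, at 0.45 and 0.43, as they were in KO 574, at 0.33 and 0.41. KO 588 stood at 0.50 and 0.20, and KO 780 at 0.17 and 0.13. WT libraries ran from -0.20 to 0.16 for the GTPase genes and from -0.22 to 0.24 for the others. These means are a description of single animals and were not tested.

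KO 602 went the other way. It was the lowest of the 12 libraries for 14 of the 36 genes, against 8.95% of all genes, of which Igtp was the 1 GBP or IRG gene. Its mean deviation was -0.35 over the 28 other genes and 0.05 over the GTPase genes. Only 6 of its 36 values lay above the WT mean, where the other KO libraries had between 24 and 35. Among WT libraries, 590 was the lowest of the 12 for 10 genes, against 10.4% of all genes.

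**Figure D4:**
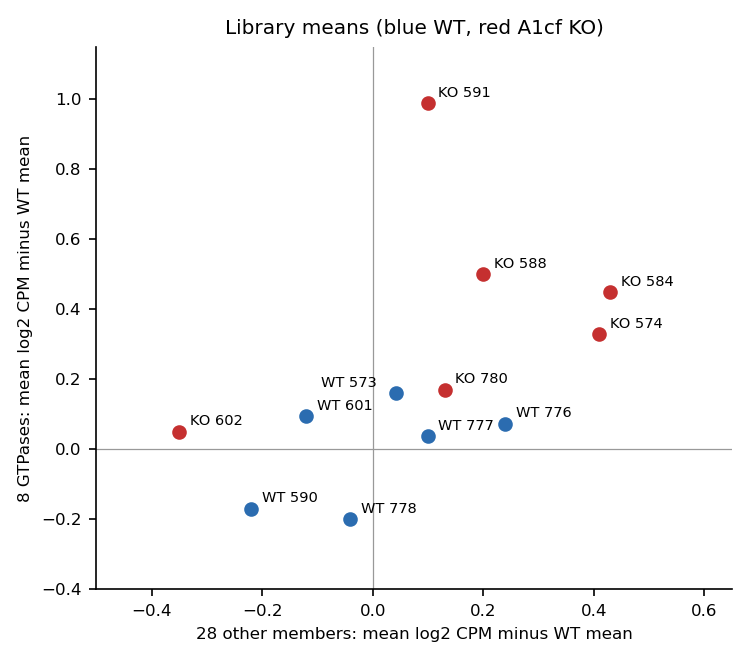
Mean log2 deviation from the WT mean for the 8 GTPase genes (y axis) and the 28 other genes (x axis), 1 point per library (blue WT, red KO). KO 591 lies at 0.99 on the y axis and 0.10 on the x axis, KO 584 and 574 are high on both, and KO 602 lies at -0.35 on the x axis.

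With KO 591 left out, the median log2 fold change of the 8 GTPase genes went from 0.42 to 0.24, and all 8 stayed positive. That of the 28 other genes was 0.17 with and without it. When KO 574 and 591 were both left out, an alternative chosen after the data were seen, the median of the 36 genes was 0.12, 31 were positive, against 49.1% of all genes, and 4 were higher at an unadjusted p under 0.05, against 3.49%.

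The genes around the set in the pathway were read from lists of ligands and receptors, signalling genes, sensors and further interferon-stimulated genes. Ligand transcripts were at or near the detection limit. Ifnb1, Ifna4 and Ifnl2 had 0 counts in every library, and Ifng had between 0 and 2 counts per WT library and between 0 and 4 per KO library. Of 11 ligand and receptor genes 6 were tested, all with positive fold changes (median 0.12, and 0.071 without KO 584) and 0 adjusted calls. Ifnar1, a subunit of the type I receptor, had the smallest p of them, with 34.4 ± 1.62 CPM in WT and 38.9 ± 1.90 CPM in KO (log2 fold change 0.18, edgeR adjusted p = 0.28). Of 15 signalling and factor genes 13 were positive, with a median of 0.10. At an unadjusted p under 0.05, 0 were higher or lower, against 5.07% and 5.28% of all genes. Socs3, a feedback inhibitor of cytokine receptors, had the smallest p (log2 fold change 0.60, edgeR adjusted p = 0.48).

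Of 17 tested genes for sensing of nucleic acids, 15 were positive and 4 were higher at an unadjusted p under 0.05 (5.07% of all genes), with a median of 0.12. The median was 0.033 without KO 584, 0.065 without KO 574 and 0.071 with the run of animal numbers as a covariate. With that covariate, 5 genes were higher at an unadjusted p under 0.05 (6.53% of all genes) and 2, Mavs and Ticam1, lower (1080 of all 16910 genes). The 4 genes higher without the covariate were Traf3 (0.26), an adaptor of these pathways, Aim2 (0.78) and Ifi204 (0.44), DNA sensor genes, and Mb21d1 (0.76), the gene of cGAS. Their edgeR adjusted p ran from 0.22 to 0.39. Traf3 passed in DESeq2 (adjusted p = 0.040), at 20.5 ± 1.40 CPM in WT and 24.5 ± 1.91 CPM in KO.

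Of 43 further interferon-stimulated genes on another list, 33 were positive, with a median of 0.16. At an unadjusted p under 0.05, 10 were higher (5.07% of all genes) and 1, Ifitm2, was lower (5.28%). The number higher was 6 without KO 584 and 6 without WT 601, where the share of all genes was not counted. The median within animals 573 to 602 was 0.31. Ddx60, a helicase gene, had the smallest p, with 0.856 ± 0.262 CPM in WT and 1.83 ± 0.538 CPM in KO (log2 fold change 1.10, adjusted p = 0.15 in edgeR and 0.0036 in DESeq2). Rnf213, a large ubiquitin ligase gene, stood at 55.8 ± 4.75 and 72.6 ± 12.6 CPM (log2 fold change 0.38, adjusted p = 0.22 in edgeR and 0.039 in DESeq2). Ifitm2, a restriction factor gene, stood at 39.6 ± 4.49 and 33.6 ± 1.79 CPM (log2 fold change -0.24, edgeR adjusted p = 0.30). Cxcl10, a chemokine gene, reached 10.7 CPM in KO 591 against a mean of 1.96 ± 0.461 CPM in WT. Its log2 fold change was 1.18, and 0.69 without that library.

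Further interferon-inducible GTPase genes showed the same direction as the 8 of the set. Their list too was chosen with earlier results of these data known, so it is not separate support for the set. Of 13 listed, 11 were tested, all positive, with a median of 0.55, and 6 were higher at an unadjusted p under 0.05 (5.07% of all genes). Gbp10 (log2 fold change 1.65) and Tgtp2 (0.52) passed in DESeq2 (adjusted p = 0.012 and 0.046) and not in edgeR (0.20 and 0.24). Gbp9 (0.55) and Gbp8 (0.91) passed in neither. Gbp10 shares exon sequence with Gbp6, and Tgtp1 and Tgtp2 are near-identical copies, so the division of reads within each pair is uncertain. Gbp8 and Gbp9 lie on overlapping stretches of chromosome 5 and carry the same doubt. KO 591 was the highest library for 5 of the 11 (Gbp5, Gbp10, Tgtp1, Tgtp2 and Gm12250). Without it, 10 of the 11 were positive and the median was 0.44, and without KO 574 and 591 it was 0.35.

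Levels of markers of other cells were measured beside these genes. The 15 macrophage markers summed to between 157 and 209 CPM in WT and between 172 and 236 CPM in KO (n = 6 each, two-sided exact permutation test, p = 0.071, or 0.25 after adjustment over 7 such measures). Csf1r, the 1 marker with a negative fold change (-0.082), gave between 46.2 and 64.5 CPM of that sum. The other 14 had positive fold changes, and the median over the list was 0.37, above the 0.18 of the 36 genes, and 0.23 without KO 584. At an unadjusted p under 0.05, 4 were higher, against 5.07% of all genes. They were Ctss (log2 fold change 0.38), a lysosomal protease gene, Itgax (0.55), an integrin gene, C1qc (0.32), a complement gene, and Adgre1 (0.40), the gene of the F4/80 antigen. DESeq2 called Ctss (adjusted p = 0.0076) and, just under the threshold, Itgax (0.050), and for Itgax all 6 KO libraries lay above all WT libraries. The highest macrophage sum was in KO 602, the library lowest for 14 of the 36 genes, and KO 591 stood at 196 CPM, inside the WT range. The mean log2 deviation of these markers from the WT mean ran from -0.20 to 0.26 in WT libraries. It was 0.52 in KO 602, 0.51 in KO 584, 0.44 in KO 574, 0.20 in KO 591, 0.12 in KO 780 and 0.058 in KO 588. The 18 lymphocyte and natural killer cell markers summed to between 7.58 and 16.2 CPM in WT and between 7.17 and 19.5 CPM in KO (n = 6 each, exact permutation p = 0.93, adjusted p = 0.98). Of 15 tested, 8 had positive fold changes, and Klrb1c, a natural killer cell receptor gene, was lower at an unadjusted p under 0.05 (log2 fold change -1.49, edgeR adjusted p = 0.31). Ms4a1, Klrb1c, Ncr1 and Gzma were at 0 in some libraries. KO 584 had the highest lymphocyte sum and KO 602 the lowest, the same 2 animals that were high and low for many genes of the set, while KO 591 stood at 11.9 CPM. Their part in the result was not tested.

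The 9 markers of plasmacytoid dendritic cells and neutrophils were scarce, with sums from 1.74 to 4.17 CPM in WT and from 3.86 to 5.48 CPM in KO (n = 6 each, exact permutation p = 0.0087, adjusted p = 0.061). Of 4 tested, all had positive fold changes and 0 were higher at an unadjusted p under 0.05 (5.07% of all genes). The smallest p was that of Csf3r (log2 fold change 0.59, edgeR adjusted p = 0.52). Ly6g, Mpo and Elane were at 0 in some libraries. Immediate early genes, which respond within minutes to handling of tissue as well as to signals, summed to between 187 and 610 CPM in WT and between 192 and 1139 CPM in KO (n = 6 each, exact permutation p = 0.41, adjusted p = 0.72). Gene by gene, all 15 tested had positive fold changes, with a median of 0.60, and 4 were higher at an unadjusted p under 0.05 (5.07% of all genes). They were Atf3 (log2 fold change 1.56), which DESeq2 called (adjusted p = 0.030), Fosb (2.97), Egr2 (1.78) and Nr4a1 (1.31), all genes of transcription factors. KO 584 was the highest library for 13 of the 15. Without it, 9 were positive and the median was 0.17, and without WT 573, the highest WT library, the median was 1.0. The part of either list in the result was not tested.

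Animal numbers fall into 2 runs, 573 to 602 and 776 to 780, and the labels do not say what separates them. They are uneven between genotypes, with 3 WT and 5 KO animals in the first and 3 WT and 1 KO in the second. The 10 endothelial markers summed to between 262 and 340 CPM in WT 573 to 601 and between 455 and 525 CPM in WT 776 to 778. For genotype over all libraries, Tek had the smallest p of these markers (log2 fold change 0.15, edgeR adjusted p = 0.81). All 10 were positive with the run as a covariate (median 0.31), and 7 were higher at an unadjusted p under 0.05 (6.53% of all genes). With the run as a covariate, the median log2 fold change of the 36 genes was 0.24, 34 were positive, against 49.8% of all genes, and 6 were higher at an unadjusted p under 0.05, against 6.53%. Within animals 573 to 602 alone the median was 0.34, 35 were positive, against 50.3% of all genes, and 8 were higher at an unadjusted p under 0.05, against 4.04%. None of the 36 passed the adjusted threshold there, against 0.0402% of all genes. There the GTPase genes had a median of 0.48 and the other 28 one of 0.30. All 10 endothelial markers were positive there as well (median 0.36), and 8 were higher at an unadjusted p under 0.05 (4.04% of all genes). The part of the endothelial markers in the result was not tested. Within 776 to 780 the KO group holds 1 library, so no test of genotype was made there.

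Ifit3 was the 1 gene of the 36 that differed between the runs in edgeR. Of all genes 2.90% did, a share close to that of the set, so nothing is read from this count about the set. The IFIT genes are given because the genotype difference of Ifit2 is larger within animals 573 to 602 than over all libraries. The same is true of other genes of the set, such as Rsad2 (-0.10 over all, 0.24 within), Irf7 (0.22, 0.46) and Ifi44 (0.15, 0.37). The IFIT genes encode proteins that bind foreign RNA, and they lie in 1 cluster on chromosome 19, between 2.60 and 2.69 Mb from A1cf. In WT, Ifit3 stood at 16.5 ± 3.13 CPM in animals 573 to 601 and at 23.7 ± 2.23 CPM in animals 776 to 778 (SD, n = 3 each). Over all 12 libraries, with genotype in the model, it was higher in the second run by 0.51 on the log2 scale (SE 0.11, edgeR adjusted p = 0.020). In WT animals alone the difference was 0.52, with an adjusted p of 0.16 in edgeR.

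In WT, Ifit2 showed a like split, at 6.01 ± 0.917 CPM in 573 to 601 and 10.3 ± 1.31 CPM in 776 to 778 (SD, n = 3 each). The WT values of the runs did not overlap for Ifit2 and Ifit3, nor for some other genes of the set. Among these were Ifi44 and Parp14, higher in 776 to 778, and Ifih1 and Igtp, lower there. The share of all genes that separate in this way was not counted, so nothing is read from it. The difference of Ifit2 between runs was 0.57 (SE 0.16, adjusted p = 0.077 in edgeR and 0.012 in DESeq2). Ifit1 showed no such split, with 3.31 ± 0.790 and 3.87 ± 1.33 CPM (difference 0.22, edgeR adjusted p = 0.67). For genotype, the log2 fold change of Ifit2 was 0.061 over all libraries and 0.47 within animals 573 to 602 (edgeR adjusted p = 0.61). That of Ifit3 was 0.0075 over all and 0.20 within those animals.

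**Figure D5:**
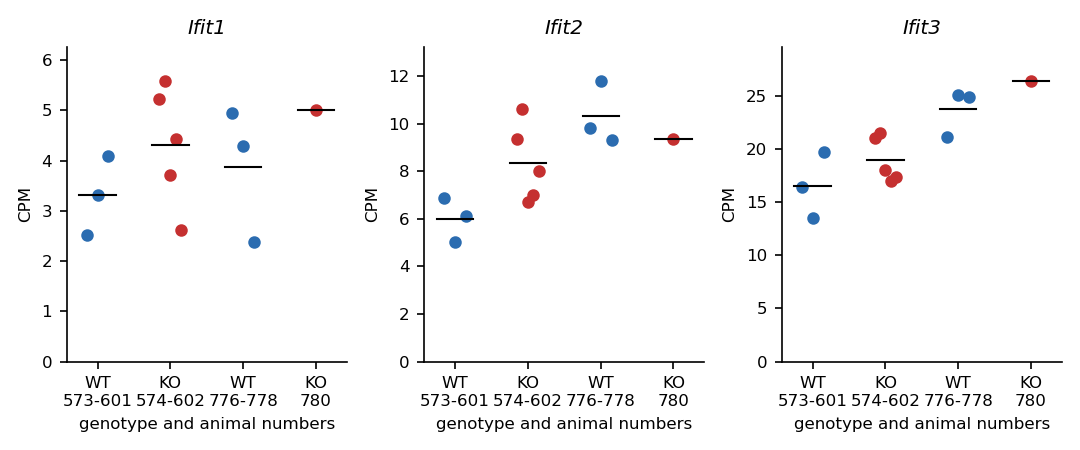
CPM (y axis, starting at 0) of Ifit1, Ifit2 and Ifit3 by genotype and run of animal numbers, with points for libraries and lines for means. For Ifit2 and Ifit3 the 3 WT animals 776 to 778 all lie above the 3 WT animals 573 to 601, and the single KO animal 780 lies at 9.34 and 26.4 CPM. Ifi44 and Parp14, not drawn here, separate in the same way in WT.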

How the data were processed

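Per the labels' protocols, 12 flash-frozen kidneys (6 WT, 6 KO) were extracted with miRNeasy, and 1 ug of RNA per sample went into an Illumina TruSeq preparation. The authors deposited raw read counts per gene name. Per the file headers, reads of trimmed, merged and duplicate-marked alignments were counted with featureCounts 1.5.0-p2 over exons of the GENCODE M8 annotation, with no strand, pair or duplicate option, so marked duplicates were counted and overlapping genes cannot be separated by strand. STAR, DESeq2 and mm10 are named without versions, per the submitters' processing notes. The deposited table also gives the summed exon length of each gene, used for levels per kilobase.

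The counts were tested with edgeR 4.0.16 in R 4.3.3: filterByExpr by genotype, TMM scaling and a quasi-likelihood F test with genotype as the only term, with Benjamini-Hochberg adjustment over 16910 genes at a threshold of 0.05. Intervals are at 95%. Library measures were compared by exact two-sided permutation tests, for which the smallest possible p is 0.0022. Alternatives were other scalings (DESeq2 size factors, upper quartile), no filter or a mean of at least 1 CPM, DESeq2 1.42.0, voom in limma 3.58.1, the run of animal numbers as covariate, animals 573 to 602 only, and leaving out each library. On simulated counts of 16699 genes for this comparison, edgeR called 48 of 50 genes raised and 40 of 50 lowered by 1.00 (log2 scale). It called 32 of 50 raised and 29 of 50 lowered by 0.500, and 13 of 16499 unaltered ones. In the deposited counts edgeR called 8 of 16910 genes, fewer than in the simulation, which makes the adjusted threshold stricter. There Gbp6, at a log2 fold change of 0.94, had an edgeR adjusted p of 0.11, and Iigp1, at 0.86, one of 0.17. The simulated shares are therefore not the chance of a call for the 36 genes.

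The members, their roles and the other gene lists were chosen with earlier results of these data known. Values are given in full for members with an unadjusted p under 0.05 and for the 2 with the smallest p in each role. From the other lists up to 4 genes with the smallest p under 0.05 were taken, or else the 1 with the smallest p. Other genes named, such as those at the extremes of single libraries, were chosen after their values were seen.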

Additional observations from a re-analysis of the deposited data

Results flagged for a closer look

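In each genotype, the highest and the lowest library of each gene were compared with the nearest other library (Dixon's test for 6 samples, at its 95% critical value). Of 72 groups, 4 held such a library, and chance gives about 1 in 20 groups. Gbp2 reached 18.7 CPM in KO 591, the highest of the KO libraries (gap over range 0.815). Oasl2 reached 12.5 CPM in WT 776, the highest WT library (0.735). Parp14 stood at 12.1 CPM in KO 602, the lowest KO library (0.707). Irgm2 reached 18.6 CPM in WT 573, the highest WT library (0.661).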

How the results depend on the processing

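The number of the 36 genes past the threshold was 0 in edgeR and 3 in the DESeq2 Wald test. Leaving out 1 library at a time, the edgeR number ran from 0 to 0, that at an unadjusted p under 0.05 from 5 to 19, the median log2 fold change from 0.13 to 0.28, and genes whose genotypes did not overlap from 3 to 4. The number differing between the runs of animal numbers was 1, 0 in WT animals alone and 2 in DESeq2. Over 756 values of single genes in 21 alternatives, 729 kept their direction and side of the threshold, 3 passed it (Gbp3, Gbp6 and Iigp1 in DESeq2) and 24 changed sign. The sign changes concern 9 genes with small differences, and the other 27 changed sign in none of these alternatives. Without KO 574 and 591 the log2 fold changes were -0.012 for Dtx3l, -0.10 for Rtp4 and -0.094 for Xaf1. With the run as covariate they were -0.024 for Mx1 and 0.0065 for Rsad2, and within animals 573 to 602 that of Rsad2 was 0.24. Leaving out 1 library at a time, the ranges were -0.045 to 0.20 (Ifit2), -0.084 to 0.084 (Ifit3), -0.12 to 0.27 (Mx1), -0.0084 to 0.15 (Bst2), -0.14 to 0.10 (Rtp4), -0.089 to 0.12 (Xaf1) and -0.0029 to 0.093 (Trim25). The cause was not tested. No paired analysis was made, because the labels do not say which WT and KO animals, if any, were littermates. Depth limits the genes near 1 CPM, among them Mx1 and Mx2, and the p-values measure the spread between these 12 animals.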
